A study of Mus musculus with 14 samples.

Results

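The genes described here are Gas5, a long noncoding RNA gene, the small nucleolar RNA (snoRNA) genes Snord78 and Snord80 that lie inside it, and 6 other noncoding genes that carry snoRNAs in their introns: Snhg1, Snhg3, Snhg5, Snhg6, Snhg8 and Snhg12. Snord78 and Snord80 were chosen because they were lower in distal than in control cells in these data, and the hosts were added for comparison with them. All 9 genes had a row in the count table, out of 55228 rows. Mouse tail epidermis cells were compared between 2 regions, a distal region that the study links to memory of an injury (6 libraries, in 2 sets of 2 and 4) and a control region outside it (8 libraries, in 2 sets of 6 and 2). Both regions shared the genotype Lrig1CreER/Rosa-TdTomato, in which Cre driven from Lrig1, a gene of upper hair follicle cells, switches on a red reporter. They also shared the treatment entry none and the time entry 8w pw1, and all cells were sorted for Sca1 and grown for 1 week in keratinocyte medium before RNA was taken. The labels give neither the age nor the number of the animals, nor do they say that libraries are separate animals or cultures, so the spread between libraries may be technical.

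Box C/D snoRNAs are short RNAs cut from the introns of host transcripts, and each guides a methyl group to a chosen position of ribosomal or other RNA. The boxes C and D are bound by a core of 4 proteins, among them the methyltransferase fibrillarin. Gas5 and many of its relatives begin with a terminal oligopyrimidine (TOP) sequence, which ties their translation to mTOR signalling. Their spliced RNA holds only short reading frames and is removed by nonsense-mediated decay when it is translated. In human cells, Gas5 RNA also binds the glucocorticoid receptor.

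Smart-seq2, the method used, copies RNA with a poly(A) tail, which mature snoRNAs lack. A snoRNA row therefore counts reads that fall on the snoRNA's bases in copied RNA, and the values below are levels of the row rather than of the mature snoRNA. The sequences of the snoRNAs whose rows the results turn on are given from the GENCODE transcripts (GRCm38), with the box C motif (TGATGA, or TGATG in Snord78) and the box D motif CTGA in capitals. Snord78 lies at chr1:161036984-161037049, Snord80 at chr1:161037601-161037681, Gm22357 at chr1:161036057-161036139 and Snord47 at chr1:161038082-161038158, all on the plus strand inside Gas5. Snord87 lies at chr1:9942463-9942549 on the minus strand inside Snhg6.
Snord78: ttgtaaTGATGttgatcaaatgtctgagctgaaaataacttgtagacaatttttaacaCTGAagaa
Snord80: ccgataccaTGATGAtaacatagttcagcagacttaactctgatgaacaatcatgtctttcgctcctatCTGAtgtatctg
Gm22357: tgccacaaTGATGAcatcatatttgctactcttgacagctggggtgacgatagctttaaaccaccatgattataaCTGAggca
Snord47: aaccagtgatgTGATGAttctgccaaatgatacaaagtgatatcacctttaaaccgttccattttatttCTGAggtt
Snord87: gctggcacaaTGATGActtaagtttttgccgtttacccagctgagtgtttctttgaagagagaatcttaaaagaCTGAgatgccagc
Snord78 is 66 nt long with 28.8% G and C, the lowest GC content of the 11654 tested genes that had a value, whose median was 49.6%. Snord80 is 81 nt long with 39.5% G and C.

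Total counts ran from 2137934 to 4513518 in distal libraries and from 4515646 to 7458872 in control libraries, and the deepest distal library lay just below the shallowest control library. Of the 9 genes, 8 passed the filter on low counts. Snhg3 did not, with 1 to 10 counts in a distal library and 3 to 9 in a control library. In the comparison of distal with control cells, 48.3% of the 11757 tested genes passed the threshold (edgeR's quasi-likelihood test, Benjamini-Hochberg adjusted p under 0.05), 24.3% higher and 24.1% lower. Every distal library lay below every control library for 5.65% of tested genes. The summed level of 8 keratinocyte markers was 17671 to 25287 CPM in distal and 11488 to 18166 CPM in control libraries (CPM is counts scaled to a common library total), and all 8 were detected. The summed level of 8 leukocyte markers was at most 1.37 CPM in distal and 0.473 CPM in control libraries, and Cd3e, Cd3g, Trdc, Cd207 and Tyrobp were at 0 throughout. Melanocyte markers summed to at most 5.49 CPM in distal and 4.36 CPM in control libraries, with Dct and Sox10 at 0. Endothelial markers summed to at most 9.51 CPM in distal and 9.86 CPM in control libraries, with Cdh5, Emcn and Cldn5 at 0. Fibroblast markers ranged from 17.2 to 110.4 CPM in distal and from 11.8 to 258.9 CPM in control libraries, and their part in the results was not tested.

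Gas5 (ENSMUSG00000053332.13, chr1:161034422-161038539, plus strand, GRCm38) held the most counts of the 9 genes, 17635 over all libraries. It ranged from 181 CPM through a median of 206 CPM to 251 CPM in distal libraries, against 230.1, 304 and 360.0 CPM in control libraries. The groups overlapped, although 7 of 8 control libraries lay above the highest distal one. Means were 209.7 CPM ± 23.0 (SD, n = 6) in distal and 303.7 CPM ± 43.4 (SD, n = 8) in control libraries, and the log2 fold change was -0.53 ± 0.13 (SE). In bulk RNA, fewer cells with Gas5 and less Gas5 per cell cannot be told apart. The median of all tested genes was -0.16 on the same scale. As the genes were chosen on this contrast, no p-value is given for any of them in it. With counts summed into the 4 sets, 30.5% of tested genes passed, 18.8% higher and 11.7% lower, and 5 of the 8 tested genes of the chosen 9 did. Gas5 did not, at a log2 fold change of -0.39, nor did it without distal set 2, at -0.33.

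**Figure D1:**
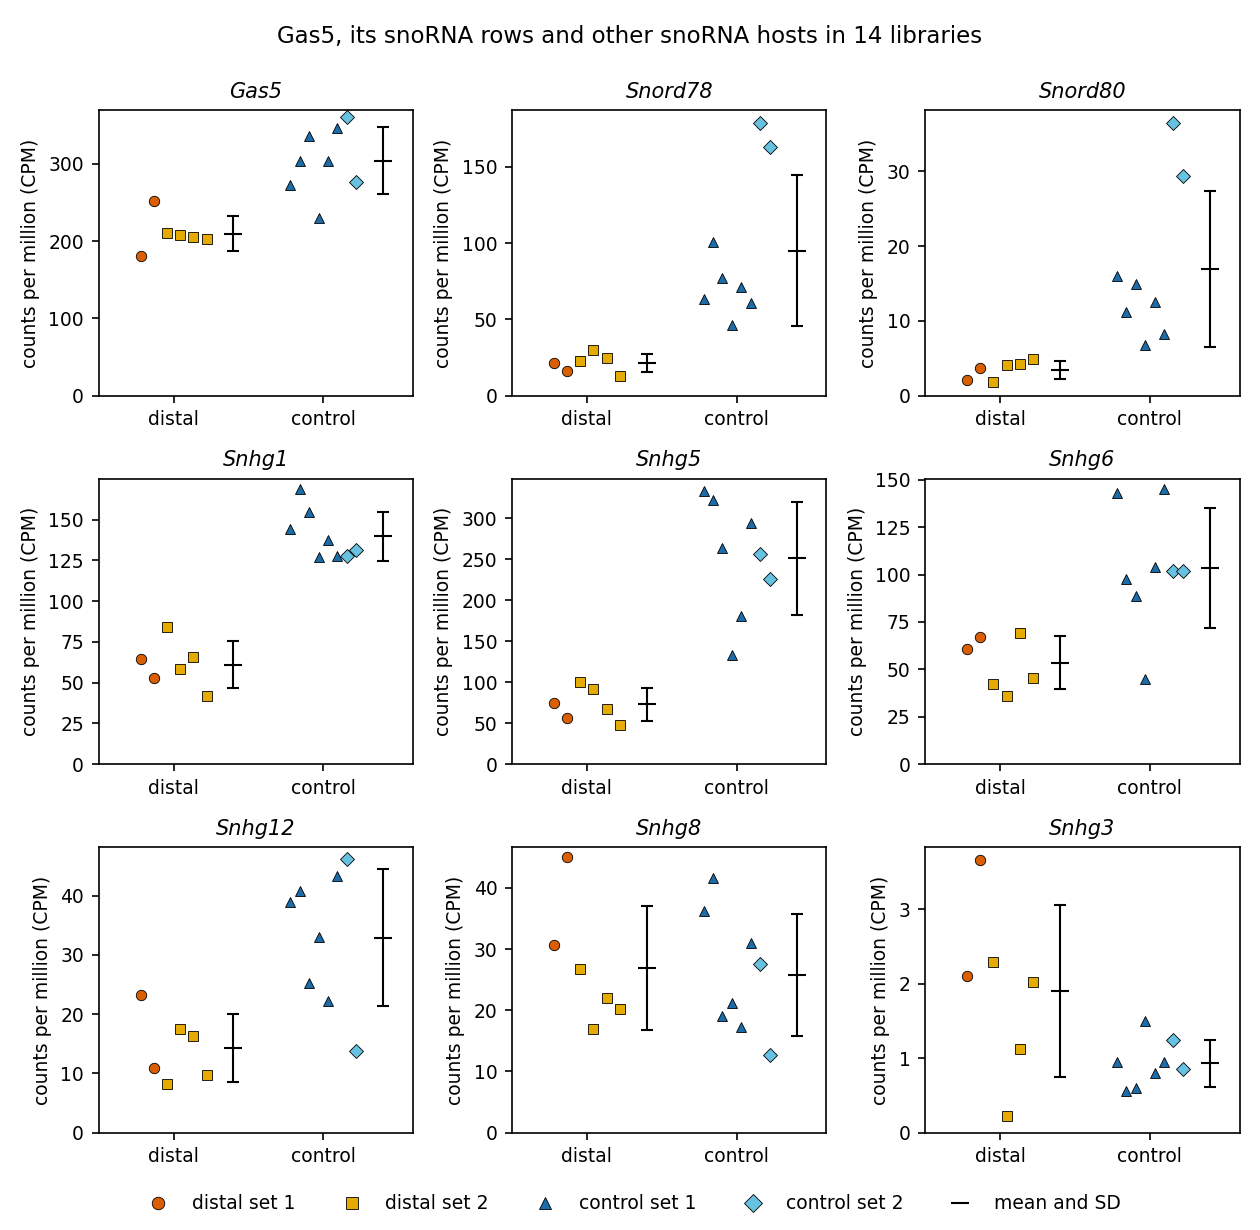
Level of each gene in CPM (y axis, from 0) in every library, with distal libraries left of control libraries, symbols by set, and the mean with its SD beside each group. Distal libraries all lie below control libraries for Snord78, Snord80, Snhg1 and Snhg5, and the 2 libraries of control set 2 stand above the other control libraries for Snord78 and Snord80.

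Snord78, which in human guides a methylation of the large ribosomal RNA, was the row inside Gas5 with the most reads. It ranged from 12.9 CPM through a median of 21.9 CPM to 29.8 CPM in distal libraries, against 46.4, 73.9 and 179 CPM in control libraries. Every distal library lay below every control library. Means were 21.2 CPM ± 6.08 (SD, n = 6) in distal and 95.1 CPM ± 49.5 (SD, n = 8) in control libraries, 4.47-fold higher in control, with a log2 fold change of -2.15 ± 0.31 (SE). Snord80, in human a guide for the same RNA, was at 1.83, 3.89 and 4.84 CPM (lowest, median and highest) in distal libraries, against 6.82, 13.7 and 36.4 CPM in control libraries. These groups did not overlap either. Its means were 3.47 CPM ± 1.22 (SD, n = 6) in distal and 16.9 CPM ± 10.5 (SD, n = 8) in control libraries, with a log2 fold change of -2.29 ± 0.42 (SE). The Snord80 row rested on 6 to 18 counts in each distal library and 35 to 204 in each control library. It was over the limit of the filter on low counts in 5 of 6 distal and 8 of 8 control libraries, and so needed its control libraries to be tested. Without control set 2, whose 2 libraries had the highest levels of both, the log2 fold changes were -1.64 for Snord78 and -1.67 for Snord80.

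Relative to their host, both snoRNA rows were lower in distal cells. Snord78 had 63.6 to 143 counts per 1000 Gas5 counts in distal libraries (median 112), against 175 to 590 in control libraries (median 233). The highest distal library, replicate 4, lay below the lowest control library, replicate 6. Snord80 had 8.71 to 23.86 counts per 1000 Gas5 counts in distal libraries (median 17.2), against 23.87 to 106 in control libraries (median 42.8). For this row the groups touched: distal replicate 6 and control replicate 6 differed only in the fourth digit. All 8 snoRNA rows inside Gas5 together had 219 counts per 1000 Gas5 counts ± 35.3 (SD, n = 6) in distal and 561 ± 226 (SD, n = 8) in control libraries. The means of the single rows were 103 ± 32.4 (SD) in distal and 311 ± 152 (SD) in control libraries for Snord78. For Snord80 they were 16.6 ± 5.84 (SD) in distal and 55.2 ± 31.6 (SD) in control libraries. These ratios need no scaling of the libraries, but they depend on how reads that fall on both a snoRNA and an exon of its host were assigned, and the sources used here do not say how.

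**Figure D2:**
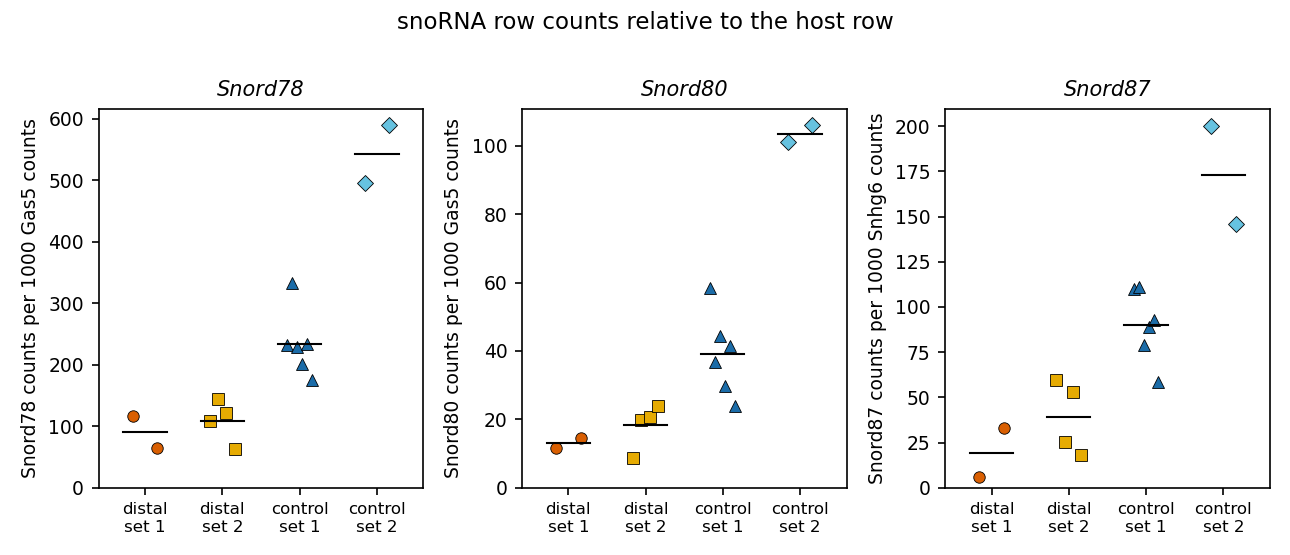
Counts of a snoRNA row per 1000 counts of its host row (y axes, from 0) in each library, by set, with a line at the set mean. Snord78 and Snord80 are set against Gas5 and Snord87 against Snhg6. Control set 2 is highest in all 3 panels, and both distal sets lie below the mean of control set 1.

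The overlap of snoRNAs and exons in Gas5 follows from its many transcripts. GENCODE lists 25 transcripts of Gas5. The one with most exons, 12, has all 8 snoRNA rows of the table in its introns. The bases of Snord78 lie within an exon of 6 transcripts and in an intron of 12, and those of Snord80 within an exon of 1 and in an intron of 16. GENCODE has a second entry named Snord80, at chr1:161037604-161037680, inside the one given above. Rows are named by symbol, so which of these entries the Snord80 row holds is not known. Apart from Snord78 and Snord80, the rows are Gm26224, Gm22489, Gm22357, Gm23212, Snord47 and Gm25789, of which 3 passed the filter. Gm22357 was lower in all 6 distal libraries, at 8.29 CPM ± 2.54 (SD, n = 6) in distal and 35.1 CPM ± 10.8 (SD, n = 8) in control libraries, and fell by 2.08 ± 0.26 (SE) on the log2 scale (edgeR adjusted p = 9.16e-06). Gm23212 averaged 3.49 CPM ± 1.16 (SD, n = 6) in distal and 10.4 CPM ± 4.73 (SD, n = 8) in control libraries, and the groups overlapped. It was over the limit of the filter in 5 of 6 distal and 7 of 8 control libraries and so needed its control libraries to be tested, and no p-value is given for it. Snord47, in human also a guide for the large ribosomal RNA, was at 4.29 CPM ± 3.79 (SD, n = 6) in distal and 5.92 CPM ± 4.05 (SD, n = 8) in control libraries. Its groups overlapped, and its log2 fold change was -0.45 ± 0.63 (SE). It was over the limit of the filter in 4 of 6 distal and 6 of 8 control libraries, so no p-value is given for it either. Mean levels of the 3 rows below the filter ran from 1.11 to 2.39 CPM in distal and from 1.11 to 3.39 CPM in control libraries. Gm26224, the row nearest the start of the gene, was the one Gas5 snoRNA row with a higher mean in distal libraries, at 2.39 CPM ± 1.39 (SD, n = 6) in distal against 1.11 CPM ± 0.897 (SD, n = 8) in control libraries, with overlapping groups. Zbtb37, a protein-coding gene on the opposite strand that overlaps Gas5 but none of its exons, did not pass (log2 fold change -0.72 ± 0.41, SE; edgeR adjusted p = 0.159).

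**Figure D3:**
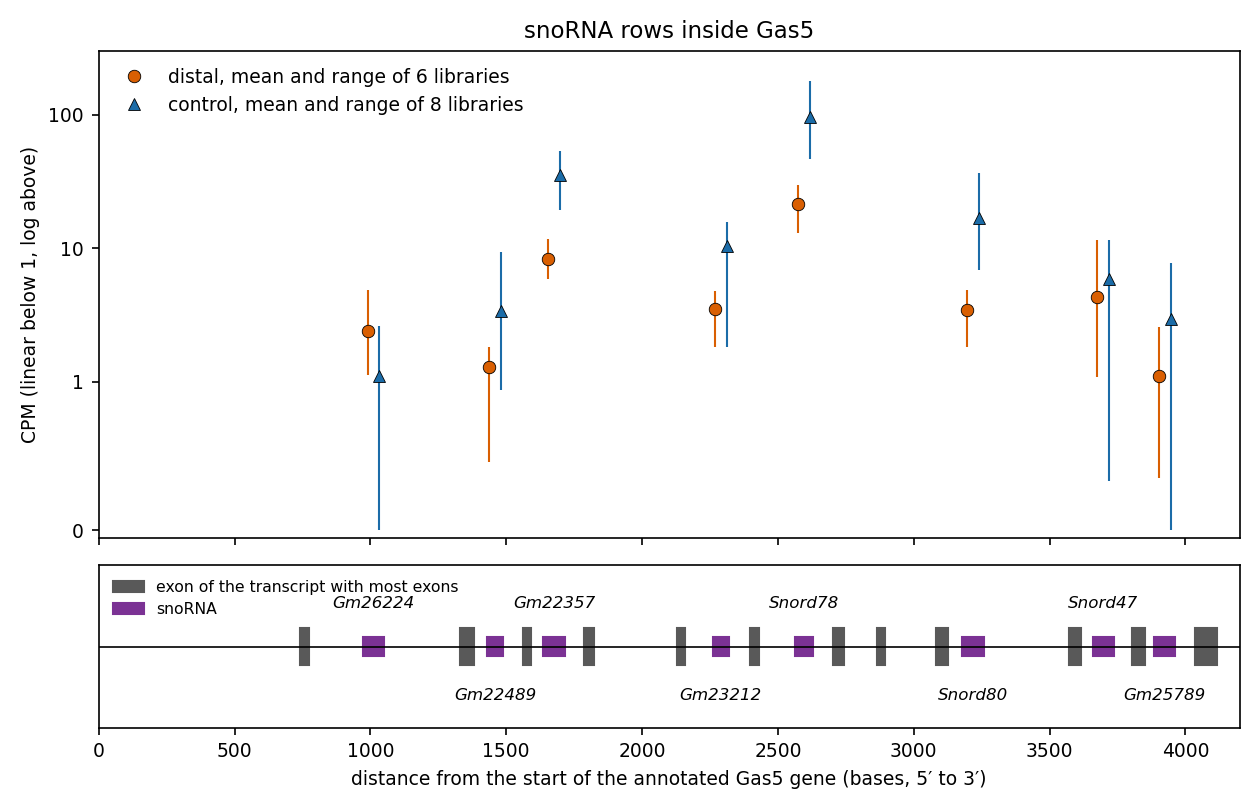
Mean and range of CPM (upper panel, log above 1) for the 8 snoRNA rows inside Gas5, distal left of control, above a map of the gene to scale (lower panel, distance in bases from the annotated start). The ranges of distal and control libraries are apart for Gm22357, Snord78 and Snord80 and overlap for the other 5 rows.

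Of the other hosts, Snhg1, Snhg5, Snhg6 and Snhg12 were lower in distal cells as well. On GRCm38, Snhg1 lies at chr19:8723475-8726443 and Snhg12 at chr4:132308623-132311024 on the plus strand, and Snhg5 at chr9:88521050-88522929 and Snhg6 at chr1:9941959-9944118 on the minus strand. Snhg5, host of Snord50a and Snord50b, had the largest difference of the 7 hosts. It ranged from 47.6 CPM through a median of 71.3 CPM to 100.4 CPM in distal libraries, against 134, 260.5 and 334 CPM in control libraries, without overlap. Means were 73.2 CPM ± 20.3 (SD, n = 6) in distal and 251.5 CPM ± 69.1 (SD, n = 8) in control libraries, and the log2 fold change was -1.78 ± 0.22 (SE). Snhg1, which carries 8 snoRNA rows, was at 41.6, 61.3 and 83.9 CPM (lowest, median and highest) in distal libraries, against 127, 134 and 169 CPM in control libraries. Its groups did not overlap, and its log2 fold change was -1.19 ± 0.16 (SE). Snhg12, which carries Snora16a, Snora44, Snora61 and Snord99, was at 8.25, 13.7 and 23.2 CPM in distal libraries, against 13.8, 35.9 and 46.2 CPM in control libraries. Its groups overlapped, with 6 of 8 control libraries above the highest distal one, and its log2 fold change was -1.20 ± 0.30 (SE). Snhg6, host of Snord87, was at 36.0, 53.0 and 69.4 CPM in distal libraries, against 44.9, 101.8 and 145 CPM in control libraries. Here 7 of 8 control libraries lay above the highest distal one, and the log2 fold change was -0.95 ± 0.23 (SE).

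Snhg8 (chr3:123507552-123508404, minus strand) and Snhg3 (chr4:132348014-132353686, minus strand) did not share this direction. Snhg8, host of Snora24, was at 17.0, 24.4 and 45.0 CPM (lowest, median and highest) in distal libraries, against 12.7, 24.3 and 41.5 CPM in control libraries. The groups lay across each other, and the log2 fold change was 0.06 ± 0.28 (SE). Snhg3, host of Snora73a and Snora73b, was barely detected, at 1.91 CPM ± 1.16 (SD, n = 6) in distal and 0.931 CPM ± 0.315 (SD, n = 8) in control libraries. Without the filter on low counts its log2 fold change was 0.95 ± 0.83 (SE). Snhg3 shares 135 exon bases with the protein-coding gene Rcc1 on the same strand and 705 with Gm17300 on the opposite strand, so its reads cannot be separated from theirs in the overlap. Rcc1, an exchange factor of the nuclear GTPase Ran, rose in distal cells (log2 fold change 1.01 ± 0.17, SE; edgeR adjusted p = 0.000117). With the trends of the libraries with GC content and length removed it was at 0.27 and did not pass (edgeR adjusted p = 0.239). Snhg6 shares 127 exon bases with Mcmdc2 on the opposite strand, and Mcmdc2 had a log2 fold change of -0.59 ± 0.76 (SE). Mcmdc2 was over the limit of the filter in 5 of 6 distal and 7 of 8 control libraries. It needed its control libraries to be tested, so no p-value is given for it.

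In all, 7 of the 8 tested genes passed the threshold, all lower, beside the 24.1% of all tested genes that were lower. The groups did not overlap for 4 of the 8, beside the 5.65% above. The genes were chosen on this contrast, so nothing is read from these shares.

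Promoter windows of the hosts were compared because 5 of them were lower together and TOP transcripts start in a run of C and T. RefSeq (GRCm38.p6) gave 7 start sites for 6 of the 7 hosts, all but Snhg6. Each window runs from 50 bases before the start to 49 after it, with TATA and CTTT on the sense strand in capitals, overlapping matches included.
Gas5, chr1:161035116-161035215, plus strand: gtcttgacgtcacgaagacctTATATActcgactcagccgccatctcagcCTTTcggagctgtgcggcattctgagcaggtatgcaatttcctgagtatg
Snhg12, chr4:132308628-132308727, plus strand: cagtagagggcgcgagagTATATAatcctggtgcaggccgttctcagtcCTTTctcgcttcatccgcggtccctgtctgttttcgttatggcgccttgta
Snhg5, chr9:88522848-88522947, minus strand: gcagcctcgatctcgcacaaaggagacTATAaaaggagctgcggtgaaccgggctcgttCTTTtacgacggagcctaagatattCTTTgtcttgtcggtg
Snhg8, chr3:123508287-123508386, minus strand: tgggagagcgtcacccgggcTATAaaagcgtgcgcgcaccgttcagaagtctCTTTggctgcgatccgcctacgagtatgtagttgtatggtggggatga
This Gas5 window has CTTT at the start site itself and TATA 29 bases before it, and the window of the other Gas5 start site holds neither. In Snhg8, whose distal and control libraries overlapped, CTTT lies 2 bases after the start and TATA 30 bases before it. At any place in the window, TATA was found in 6 of the 7 windows and both motifs in 5, against 13.7% and 5.88% of all 32851 promoter windows of this length. Positions differed in windows that are not printed. In Snhg3, which has no CTTT, TATA lies 22 bases after the start, and in Snhg1 the nearest CTTT lies 35 bases after it. CTTT alone was found in 34.8% of all windows on the sense strand and in 56.8% on either strand, while TATA reads the same on both. The Snhg8 window holds the same 2 motifs as those of the lower hosts. Matches to letters this short are descriptions and not sites.

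The snoRNA rows of the hosts differed widely in how many reads they held. Over all 14 libraries, the snoRNA rows inside Gas5 had 476 counts per 1000 Gas5 counts, those inside Snhg6 96.0 and those inside Snhg1 59.5 per 1000 host counts. The single row inside Snhg8 had 40.6 per 1000. The rows inside Snhg5 had 1.76 and those inside Snhg12 1.74 per 1000 host counts, so that Snord50a and Snord50b together held 22 counts beside the 12503 of Snhg5. Outside Gas5, Snord87 was the one snoRNA row of the 7 hosts that passed the filter. Snord87, a guide RNA in the introns of all 5 annotated Snhg6 transcripts, was at 0.351, 1.56 and 3.67 CPM (lowest, median and highest) in distal libraries, against 3.99, 10.2 and 20.3 CPM in control libraries. It passed the filter through its 8 control libraries, as 3 of 6 distal libraries were over the limit. A row that is tested because it is high in control libraries tends by that selection to be lower in distal libraries. The log2 fold change of Snord87, -2.66 ± 0.50 (SE), is therefore given without a p-value. The groups did not overlap. Per 1000 Snhg6 counts, it had a median of 29.1 counts in distal and 101.3 in control libraries, and the highest distal value, 59.46 in replicate 3, passed the lowest control value, 58.73 in replicate 6.

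Across the whole table, 21 pairs of a snoRNA row and an annotated host could be tested on both sides. In 17 of them the snoRNA row had the lower log2 fold change, with a median difference of -0.84 between snoRNA and host. For Gas5 this held for 4 of 5 rows, with a median of -1.54, the exception being Snord47 at 0.089. Among the 14 pairs in protein-coding hosts it held for 11. There, Gm24523 was at -2.22 in the ribosomal protein gene Rpl30, itself at -1.38, and Snora28 at -1.62 in the initiation factor gene Eif5, itself at -1.06. Snora65 in Rpl12 went the other way, with a log2 fold change of 1.52 against 0.36 for its host. Many snoRNA rows are near the limit of 2.04 CPM in at least 6 libraries that the filter sets. Rows that passed through their control libraries alone tend by that selection to be lower in distal libraries, so these counts are no measure of all snoRNA rows. Of 1524 annotated snoRNA rows, 396 had a count and 27 were tested. Of these 3 rose and 14 fell, beside 24.3% and 24.1% of all tested genes.

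**Figure D4:**
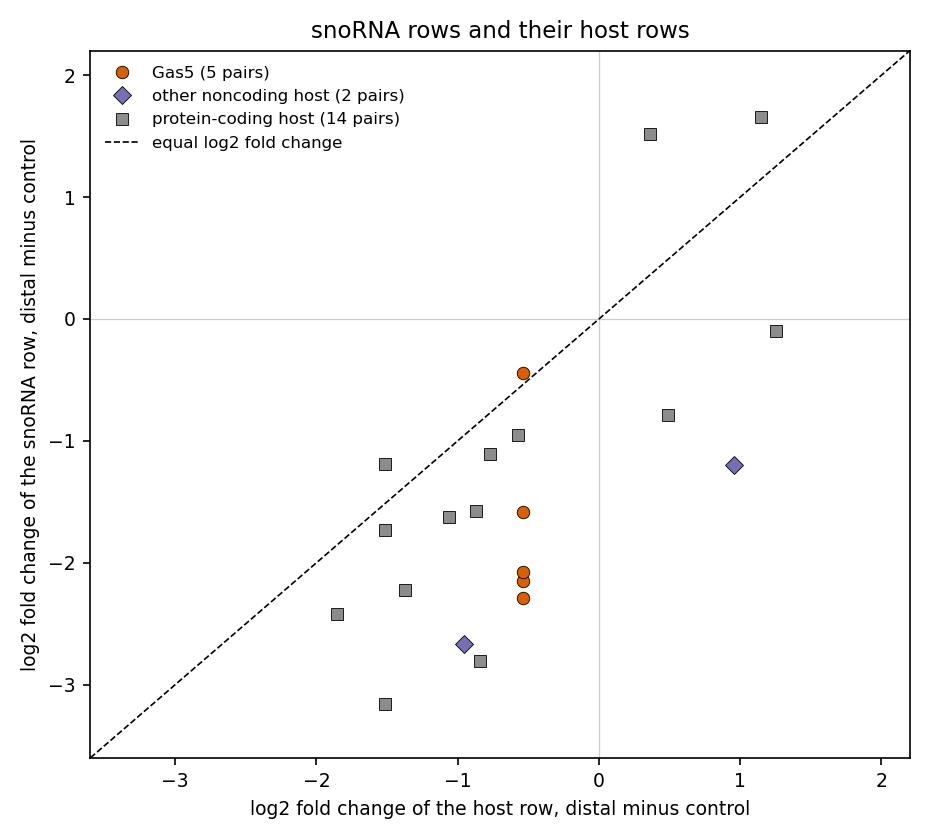
Log2 fold change of each tested snoRNA row (y axis) against that of its host row (x axis), distal minus control, for 21 pairs, with symbols by kind of host and a dashed line where both are equal. In 17 pairs the snoRNA row lies below the line, among them 4 of the 5 Gas5 rows.

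The comparison was repeated with the trend that each library showed with GC content and transcript length taken out. All 9 genes have less GC than the median tested gene, from 28.8% in Snord78 to 47.8% in Snhg12. Of 11654 genes with a GC value, 18.9% then passed (10.4% higher and 8.56% lower in distal cells). Of the 8 tested genes, which were chosen on this contrast, 3 remained past the threshold. These were Snord78 at a log2 fold change of -0.66 ± 0.20 (SE), Snhg5 at -1.16 ± 0.19 (SE) and Snhg12 at -0.88 ± 0.29 (SE). Gas5 turned to 0.26 ± 0.15 (SE), without passing. Snord80 was at -0.90 ± 0.38 (SE), Snhg1 at -0.38 ± 0.14 (SE) and Snhg6 at -0.12 ± 0.27 (SE), none of which passed. Snhg8 was at 0.49 ± 0.27 (SE) and did not pass in either fit. Of the rows not chosen for their values, Gm22357 was at -0.92 (edgeR adjusted p = 0.00449). Snord87 was at -1.49, Gm23212 at -0.13 and Snord47 at 0.93 ± 0.56 (SE), without a p-value for the reason given above. Snord47, at -0.45 as counted, thus changed sign. No tested gene has less GC than Snord78 and 3 are shorter, so its corrected value rests on the edge of the fitted trend. The difference in log2 fold change between snoRNA and host rows had a median of -0.92 over the 5 Gas5 pairs and -0.39 over all 21 pairs with the trend removed. Of the 5 Gas5 pairs 4 were below 0, and that of Snord47 was at 0.67.

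**Figure D5:**
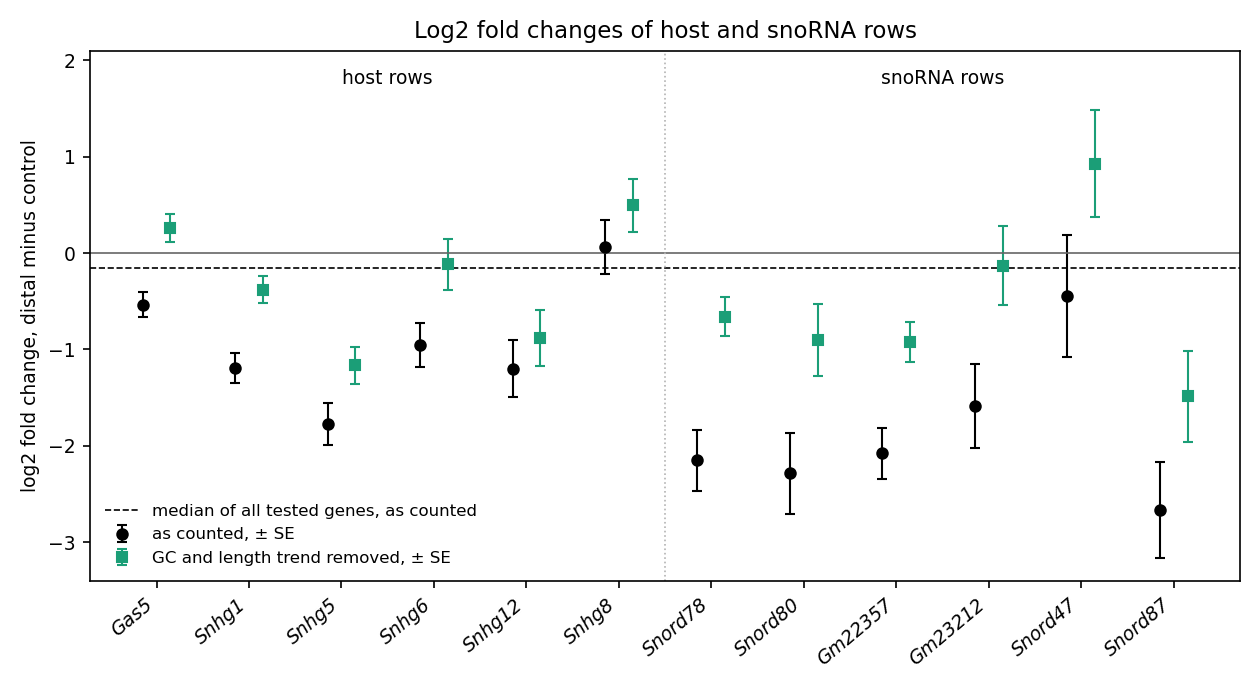
Log2 fold change with its SE (y axis, distal minus control) of 6 host rows and 6 snoRNA rows, as counted (black circles) and after removal of the trends with GC content and length (green squares), beside the median of all tested genes (dashed line, -0.16). Removal moves every row upward, Gas5 and Snord47 from below to above 0, and Snhg5, Snhg12, Snord78 and Gm22357 are among the rows that stay lower and past the threshold.

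Per kilobase of annotated exon, the order of the hosts differed between the regions. The length used joins all annotated exons of a gene, which gave 3760 bases for Gas5 and 1730 for Snhg5. Their median transcripts are 629 and 832 bases long. By median transcript length Gas5, with more CPM and the shorter transcript, stands above Snhg5 in both regions. In distal libraries Gas5 was at 55.8 ± 6.11 CPM per kb (SD, n = 6), Snhg6 at 46.7 ± 12.2, Snhg5 at 42.3 ± 11.7 and Snhg8 at 31.6 ± 11.8. Below them stood Snhg1 at 20.6 ± 4.79, Snhg12 at 5.96 ± 2.37 and Snhg3 at 1.93 ± 1.17. Each neighbour from Gas5 down to Snhg8 lay within the larger SD of the pair. In control libraries Snhg5 led at 145 ± 39.9 CPM per kb (SD, n = 8), followed by Snhg6 at 90.2 ± 27.6 and Gas5 at 80.8 ± 11.5, the last 2 within their spread. Snhg1 followed at 47.1 ± 5.11, Snhg8 at 30.2 ± 11.7, Snhg12 at 13.7 ± 4.78 and Snhg3 at 0.944 ± 0.319. With joined exons as the length, Snhg5 thus stood below Gas5 and Snhg6 in distal and above both in control libraries. Its place above Gas5 in control libraries depends on that length. Snhg12 and Snhg3 were lowest in both regions.

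Differences between the 2 sets of a region were not used to choose the genes and were tested in a model with 4 sets. Control set 2 had more of both Gas5 snoRNA rows than control set 1. Snord78 was at 179 and 163 CPM in the 2 libraries of control set 2, against 46.4 to 101 CPM in the 6 libraries of control set 1, without overlap. The log2 fold change was 1.25 ± 0.28 (SE), with an unadjusted p of 0.000335 that ranked 13 of 14579 genes and an edgeR adjusted p of 0.345. Without the filter on low counts the edgeR adjusted p was 0.00298. With the GC and length trend removed the log2 fold change of Snord78 was 0.74 (edgeR adjusted p = 0.594). Snord80 was at 36.4 and 29.3 CPM in control set 2, against 6.82 to 15.9 CPM in control set 1, which differed by 1.46 ± 0.40 (SE) on the log2 scale (edgeR adjusted p = 0.41). Its edgeR adjusted p was 0.175 without the filter. With the trend removed Snord80 was at 1.31 (edgeR adjusted p = 0.492). Gas5 itself averaged 318 CPM in control set 2 and 299 CPM in control set 1 (log2 fold change 0.05 ± 0.20, SE; edgeR adjusted p = 0.963). Per 1000 Gas5 counts, Snord78 averaged 543 in control set 2 and 234 in control set 1, 2.32-fold higher. Snord80 averaged 104 per 1000 Gas5 counts in control set 2 and 39.1 in control set 1, 2.65-fold higher. Both ratios reached p = 0.0714, the smallest that the two-sided exact permutation test allows for 2 against 6 libraries (28 regroupings), and 0.143 after adjustment over 4 such tests. None of the 14579 genes passed an adjusted p of 0.05 in this comparison with edgeR, while 8.07% had an unadjusted p under 0.05 and other scalings called 2.

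Between the 2 distal sets, Snord78 averaged 22.6 CPM in distal set 2 and 18.6 CPM in distal set 1 (log2 fold change 0.28 ± 0.34, SE; edgeR adjusted p = 0.901). Gas5 averaged 206.6 CPM in distal set 2 and 216 CPM in distal set 1. Of the 9 genes Snhg8 had the smallest p, at 21.5 CPM in distal set 2 and 37.8 CPM in distal set 1, a log2 difference of -0.82 ± 0.40 (SE; edgeR adjusted p = 0.731). None of 14579 genes passed an adjusted p of 0.05 with edgeR, and 6.85% had an unadjusted p under 0.05. Per 1000 Gas5 counts, Snord78 averaged 109 in distal set 2 and 90.4 in distal set 1 (exact permutation test, p = 0.667, with 0.133 the smallest it allows). Snord80 averaged 18.3 in distal set 2 and 13.1 in distal set 1 (exact permutation test, p = 0.4).

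Other snoRNA hosts were taken from lists of known and annotated hosts. Of 15 further noncoding hosts 9 were tested. Of these 2 passed as higher and 1, Snhg14, as lower, beside 24.3% and 24.1% of all tested genes. The log2 fold changes of the 9 had a median of 0.39, beside -0.16 for all tested genes. Snhg20 rose by 1.37 ± 0.40 (SE; edgeR adjusted p = 0.00848) and Snhg15 by 0.49 ± 0.20 (SE; edgeR adjusted p = 0.0462). Snhg14, the host of the imprinted snoRNA clusters of chromosome 7, was at -1.42 ± 0.49 (SE) and at -0.81 with the GC and length trend removed. It was over the limit of the filter in 5 of 6 distal and 8 of 8 control libraries, so no p-value is given for it. Zfas1, a TOP host like Gas5, was at -0.32 ± 0.16 (SE; edgeR adjusted p = 0.112) and did not pass. Snhg4 (-0.53), Epb41l4aos (-0.53), Snhg16 (0.39), Snhg17 (0.54) and Snhg18 (0.71) did not pass either. With the trend removed, Epb41l4aos at -1.16 was the one of 7 that passed, and neither Snhg20 (0.56) nor Snhg15 (0.15) did. Snhg15 did not pass with summed counts either (edgeR adjusted p = 0.0698).

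Most snoRNA hosts code for proteins. Of 212 tested protein-coding hosts 52 rose and 71 fell, 58.0% in all beside 48.3% of all tested genes. The median of their log2 fold changes was -0.33. Of the 30 that encode ribosomal proteins 20 rose and 5 fell, with a median of 0.90. Of the other 182, 32 rose and 66 fell, with a median of -0.42. The balance of directions over all 212 depended on the processing. With the trend removed 38 of the 212 rose and 27 fell, and with counts summed per set 45 rose and 32 fell. For the ribosomal protein hosts these counts were 19 and 5 with the trend removed and 18 and 4 with summed counts. For the other 182 they were 19 and 22 with the trend removed and 27 and 28 with summed counts. Among all tested genes 10.4% rose and 8.56% fell with the trend removed, and 18.8% rose and 11.7% fell with summed counts. The difference between these 2 groups of hosts was not tested. Among the hosts that rose, the ribosomal protein genes Rps2 and Rpl7a had log2 fold changes of 1.57 ± 0.16 (SE) and 1.51 ± 0.16 (SE), and the prohibitin gene Phb2 one of 1.50 ± 0.15 (SE). Pola1, the catalytic subunit of DNA polymerase alpha, fell by 1.57 ± 0.19 (SE), Taf1d, a subunit of the RNA polymerase I initiation complex, by 1.52 ± 0.21 (SE), and the initiation factor gene Eif3a by 0.85 ± 0.11 (SE). All 6 had an edgeR adjusted p of at most 1.8e-05. After removal of the trend Eif3a was at 0.042 and did not pass (edgeR adjusted p = 0.839), nor did it with summed counts (edgeR adjusted p = 0.0546). The other 5 passed with the trend removed, at 0.70 for Rps2, 1.28 for Rpl7a, 0.88 for Phb2, -0.69 for Pola1 and -0.66 for Taf1d. Ribosomal protein genes share sequence with pseudogenes, and the sources used here do not say how shared reads were counted.

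The proteins that bind snoRNAs moved in both directions. Of the 4 box C/D core genes, Nop58, itself a snoRNA host, fell to 276 CPM ± 90.7 (SD, n = 6) in distal against 652 CPM ± 80.9 (SD, n = 8) in control libraries, a log2 difference of -1.24 ± 0.18 (SE) on the log2 scale (edgeR adjusted p = 2.57e-05). Its partner Nop56 rose by 0.55 ± 0.14 (SE; edgeR adjusted p = 0.00406) and the box C binding protein gene Snu13 by 0.48 ± 0.16 (SE; edgeR adjusted p = 0.0182). The methyltransferase gene Fbl did not pass, at 0.16 ± 0.20 (SE; edgeR adjusted p = 0.53), but passed as lower with the trend removed, at -0.69 (edgeR adjusted p = 0.0137). Nop58 was then at -0.54 and Snu13 at 1.11, and both passed. With summed counts Snu13 did not pass (edgeR adjusted p = 0.0503). In the H/ACA core, which serves the pseudouridine guides, Nhp2 rose by 1.45 ± 0.16 (SE), Dkc1 fell by 0.70 ± 0.16 (SE) and Gar1 by 0.73 ± 0.20 (SE), and Nop10 at 0.25 did not pass (edgeR adjusted p = 0.249). Of 12 assembly factors 5 rose and 4 fell, 75% in all beside 48.3% of all tested genes, with a median of -0.38. The AAA ATPase gene Ruvbl2 rose by 1.22 ± 0.17 (SE) and Pih1d1 by 1.38 ± 0.25 (SE), while Shq1 fell by 1.38 ± 0.29 (SE) and Znhit6 by 0.96 ± 0.23 (SE). With the trend removed, none of the 12 rose and 1 fell, and the core genes had 4 higher and 3 lower of 8. Among all tested genes 10.4% were then higher and 8.56% lower. Dkc1 then lost its call at -0.15 and Nop10 passed at 0.71. Ruvbl2 (0.20), Pih1d1 (0.41) and Znhit6 (-0.56) did not pass either, whereas Shq1 did at -1.56. With summed counts Dkc1 (edgeR adjusted p = 0.0911), Gar1 (edgeR adjusted p = 0.15) and Znhit6 (edgeR adjusted p = 0.153) did not pass.

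Nonsense-mediated decay, which removes spliced Gas5, had 17 tested genes. Of these 5 rose and 5 fell (58.8%, beside 48.3% of all tested genes), with a median of 0.16. The exon junction genes Magoh and Magohb fell by 1.21 ± 0.19 (SE) and 1.05 ± 0.20 (SE), and the helicase gene Upf1 and the kinase regulator gene Smg9 rose by 0.78 ± 0.15 (SE) and 1.44 ± 0.27 (SE). With the trend removed 3 of the 17 passed, 2 of them higher, beside 18.9% of all tested genes. None of the 4 genes just named did, with Upf1 at 0.0041. Of 12 genes of mTOR signalling and TOP control 6 rose and 3 fell, beside 48.3% of all tested genes that passed, with a median of 0.66. Removal of the trend left 1 higher and 1 lower, with a median of 0.063, and with counts summed per set 4 passed, each of them higher. Among all tested genes 18.9% passed with the trend removed and 30.5% with summed counts. Eif4ebp1, the translation repressor that mTOR inactivates, rose to 143 CPM ± 26.5 (SD, n = 6) in distal against 49.1 CPM ± 11.5 (SD, n = 8) in control libraries, a log2 difference of 1.54 ± 0.18 (SE; edgeR adjusted p = 4.11e-06) and of 1.36 with the trend removed. The mTOR complex genes Rptor (1.16 ± 0.22, SE), Akt1s1 (1.06 ± 0.26, SE) and Mtor (0.60 ± 0.20, SE) also rose, and none of these 3 passed with the trend removed. Mtor did not pass with summed counts either (edgeR adjusted p = 0.0633).

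Of 12 genes of the glucocorticoid receptor and its targets 2 rose and 3 fell (41.7%, beside 48.3% of all tested genes), with a median of -0.09. The receptor gene Nr3c1 fell by 0.77 ± 0.26 (SE; edgeR adjusted p = 0.0219), as did its target Fkbp5 by 0.49 ± 0.19 (SE; edgeR adjusted p = 0.0405). Its targets Per1 and Zfp36 rose by 1.37 ± 0.20 (SE) and 0.86 ± 0.16 (SE). With the trend removed 1 of the 12 was higher and 5 were lower, and Zfp36 did not pass (0.30). With summed counts 2 were higher and 1 was lower, and Fkbp5 did not pass (-0.21). Among all tested genes 10.4% were higher and 8.56% lower with the trend removed, and 18.8% higher and 11.7% lower with summed counts.

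The genes whose levels moved most like Gas5 were not its relatives. Over the 14 libraries, deviations of log2 CPM from the mean of each region were correlated with those of Gas5 for 8660 genes. The Mediator subunit gene Med6 came first (Pearson r = 0.85, Spearman rho = 0.74), followed by the mitochondrial ribosomal protein gene Mrpl16 (0.83 and 0.85) and the noncoding gene Dleu2 (0.81 and 0.63). Then came the checkpoint kinase gene Chek2 (0.80 and 0.83) and the RNA methyltransferase gene Trdmt1 (0.76 and 0.81). The libraries share their depth and base composition, the top of so many correlations is high by selection, and no test is given. Among the chosen genes Snhg6 ranked highest, at r = 0.47 and rank 212. Snord80 was at 0.35, Snhg5 at 0.31, Snhg8 at 0.29, Snord78 at 0.26, Snhg12 at 0.019 and Snhg1 at -0.041.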

How the data were processed

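Bulk RNA was measured in 14 libraries of sorted and cultured mouse tail epidermis cells with Smart-seq2 and Nextera XT, per the labels' protocols. The authors deposited raw counts by gene symbol with no normalisation. HISAT2, featureCounts and the build mm10/GRCm38 are named in the submitters' processing notes. The sources used here give neither the use of strand nor the treatment of reads that match several features.

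Groups came from the labels (6 distal, 8 control), and the 4 sets are nested in the regions. The members and lists were chosen with earlier results of these data known. Named genes were the members, other snoRNA rows inside Gas5, up to 4 smallest p-values per list (all tested noncoding hosts, and 4 per direction for protein-coding hosts), genes overlapping members, and the 5 genes with average log2 CPM of at least 3 most correlated with Gas5. Pairs in the host comparison were named after their values were seen. A gene that this rule names among the protein-coding hosts is not reported here.

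Counts were analysed with edgeR 4.0.16 in R 4.3.3: filterByExpr (minimum count 10), TMM scaling, the two-sided robust quasi-likelihood F test and Benjamini-Hochberg adjustment over all tested genes. Fold changes are given as log2 of distal over control, and their SE was taken from the F statistic. Sets were compared in a model with 4 sets. The ratio to Gas5 was compared between sets by exact permutation. The GC and length trend was fitted per library with splines (4 degrees of freedom each) and entered as offsets. Annotation was GENCODE vM21 for GRCm38, and sequences came from it and from RefSeq. The code was tested on simulated counts. No 2 libraries of a set agreed within sampling noise (23 pairs, chi-square over degrees of freedom 6.83 to 40.0). Alternatives were other scalings, filters and DESeq2 1.42.0, summed, thinned or deeper libraries, a replicate block, the trend removal, and leaving out libraries or sets. Depth limits low rows most in distal libraries, and SD and p-values cover only the spread between libraries.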

Additional observations from a re-analysis of the deposited data

How the results depend on the processing

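The distal against control comparison called 5681 genes, and 3582 with counts summed per set, 2206 with the GC and length trend removed, 2300 without control set 1 and 1365 in libraries over 4000000 counts (2 distal and 8 control, so fewer samples). Leaving out 1 library gave 4903 to 5983, with 7 of the chosen genes called each time. Of the 8 tested, 7 were called with all libraries, 3 with the trend removed and 4 without distal set 2. Gas5 lost its call in libraries over 4000000 counts (-0.56) and without control set 1 (-0.60), besides the settings named above. Snhg12 lost its call without control set 1 (-1.07), without distal set 2 (-0.77) and in libraries over 4000000 counts (-1.37), and Snhg6 lost its call with summed counts (-0.71) and without distal set 2 (-0.53). Snhg5 kept its call in all alternatives. As these genes were chosen on this contrast, their calls describe the settings and are no test of the genes. Snhg8, never called, changed sign without distal set 1 (-0.19), in libraries over 4000000 counts (-0.25) and over the libraries left out (-0.045 to 0.31). The cause was not tested. The log2 ratio of distal to control means per 1000 Gas5 counts was -1.60 for Snord78 and -1.74 for Snord80. It was -2.40 and -2.64 without control set 1, -1.18 and -1.24 without control set 2, and -1.72 to -1.40 and -1.87 to -1.53 over the libraries left out.

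Libraries numbered 1 to 6 in both regions did not pair, with correlations of -0.017 to 0.11 between same-numbered libraries and 2 of 6 closest to their own number. The replicate block called 5371 genes, against 5207 without the block on the same 12 libraries (an alternative added after seeing the data, as were the ratios above without a library or set). The block together with the trend removal called 1953 genes, 2 of them chosen genes, with Gas5 at 0.27, as against 0.26 from the trend removal alone. Snord78 then lost its call (-0.55).

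Between control sets, 0 genes were called, but 2 with each other scaling, 113 without a filter on low counts, 3 with the trend removed and 0 to 6 over the libraries left out, 6 without control replicate 7. Between distal sets it was 0, but 81 without a filter. Uncalled genes of the 9 changed sign over the libraries left out. Between control sets the ranges were -0.11 to 0.27 for Gas5, -0.058 to 0.48 for Snhg3, -0.21 to 0.015 for Snhg5, -0.18 to 0.056 for Snhg6 and -1.29 to 0.45 for Snhg12. Between distal sets they were -0.28 to 0.17 for Gas5, -0.094 to 0.25 for Snhg1 and -0.86 to 0.24 for Snhg12, and the trend removal gave -0.20 for Snhg1 and -0.012 for Snhg5. A snoRNA row with few counts in the shallower distal libraries is limited by depth. With all libraries thinned to 2137934 counts and the tested genes kept as before thinning, the same number of chosen genes, 7, was called. Thinning cannot restore reads that the distal libraries lack, and the part of depth was not tested.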
